A study of Arabidopsis with 9 samples.

Results

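Phytochromes are red and far-red light receptors, and the PHYTOCHROME INTERACTING FACTORS (PIFs) are bHLH transcription factors that active phytochrome binds and, for most of them, sends to degradation. PIFs promote stem and petiole elongation and restrain greening, while the bZIP factor HY5 promotes the light-grown form. Both act on overlapping sets of genes in Arabidopsis seedlings, and the COP1/SPA ubiquitin ligase removes HY5 in the dark. The 10 genes described here were PHYA, PHYB, PIF1, PIF3, PIF4, PIF5, PIF7, HY5, HFR1 and PIL1, found by their gene identifiers at 11 loci among 33553 gene names at 31747 loci in the authors' deposited table.

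By the labels, 9 seedling samples aged 14 days came from long days without treatment, as 3 biological replicates per genotype. The genotypes were wild type (WT) and the mutants syd-5 and swi3d-1. The SYD gene encodes an ATPase of SWI/SNF complexes, which move nucleosomes, and SWI3D another core subunit of them. The labels describe neither the lesions nor the hour of harvest. The deposited table holds 1 pooled FPKM (fragments scaled to transcript length and library size) per locus for each of 3 conditions, WT, syd-5 and 310-3d, with the authors' test of the last 2 against WT. The name 310-3d matches no label, so that condition is called by this name and no genotype was assigned to it. Of the labelled genotypes, swi3d-1 has no entry of its own name. In the authors' deposited table SYD stood at 23.1 FPKM in WT, against 4.11 in syd-5 and 24.3 in 310-3d, and SWI3D at 16.4, 16.0 and 3.81. SYD fell in syd-5 and SWI3D in 310-3d (log2 ratios -2.49 and -2.11, q = 0.000567 for each). Values per replicate and read depths were not at hand. The error given beside a log2 ratio is therefore the standard error that the authors' test statistic implies. The authors' p implies a smaller error, by a median factor of 1.74. Intervals from the implied error are thus wider than the authors' test and do not decide a call. Its median over tested loci with at least 1 FPKM in a condition was 0.295 in syd-5 and 0.294 in 310-3d. A gene is said to rise or fall where the authors' q was below 0.05, and the smallest q in the table is 0.000567.

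Tissue markers were compared as well. Of 7 root endodermis markers, 5 rose and 0 fell in syd-5 and 6 rose and 0 fell in 310-3d in the authors' deposited table, beside 13.8% and 13.7% of tested loci with at least 1 FPKM that were higher. Their summed level was 87.2 FPKM in WT, against 154.7 in syd-5 and 138.2 in 310-3d, with none at 0. CASP2 and CASP4 stand at loci merged with AT3G11540 and AT5G06180, whose reads cannot be split. The merged CASP2 locus, at 27.8, 41.0 and 38.7 FPKM, is among the rises in both comparisons. The merged CASP4 locus, at 6.84, 7.78 and 8.31, did not pass. Of 6 green tissue markers 0 passed in syd-5 and 1, LHCA1, rose in 310-3d, and their sum was 73.9% of WT in syd-5 and 74.7% in 310-3d. RBCS1A, at 16594 of the 27285 FPKM in WT, dominates that sum. In 310-3d PSBO1 stood at 99.9% of WT, LHCB1.3 at 93.9% and LHCA1 at 131.6%. RBCS1A stood there at 69.4%, CA1 at 82.2% and RCA at 65.1%. In syd-5 LHCA1 stood at 113.4% of WT and PSBO1 at 91.4%. The other markers stood lower in syd-5, RBCS1A at 72.4%, LHCB1.3 at 74.6%, CA1 at 80.4% and RCA at 65.0%. The median log2 fold change of FPKM + 1 over the 6 markers was -0.37 in syd-5 and -0.19 in 310-3d. In RNA of seedlings a smaller share of a tissue and less RNA of a gene per cell cannot be told apart, and the part of tissue makeup in the changes below was not tested.

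Of the 10 genes, 7 passed the authors' test in syd-5, with 3 rises and 4 falls, against 27.1% of all tested loci (13.6% higher and 13.6% lower). In 310-3d 6 passed, with 2 rises and 4 falls, against 27.3% of tested loci (13.4% higher and 13.9% lower). PHYA and PIF5 rose and PHYB, PIF3, PIF7 and the HY5 locus fell in each comparison, and PIL1 rose in syd-5. PIF1, PIF4 and HFR1 passed in neither. The comparisons share the WT samples, so a call in both is not independent evidence. The median log2 fold change on the scale of log2(FPKM + 1) was -0.35 for the 10 genes in syd-5 and -0.11 in 310-3d. Over tested loci with at least 1 FPKM in a condition, a filter not set for the 10, it was 0.01 and -0.01. Without the merged HY5 locus the median of the members in 310-3d was 0.00282. The median of the 10 there lay between HFR1 at -0.21 and PIF1 at 0.00282. Leaving out any 1 gene with a negative value would therefore turn its sign in the same way. Of the 10, 9 reached 1 FPKM in some condition and 8 reached it in WT. PIL1 did so in syd-5 alone, and PIF4 in none.

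**Figure D1:**
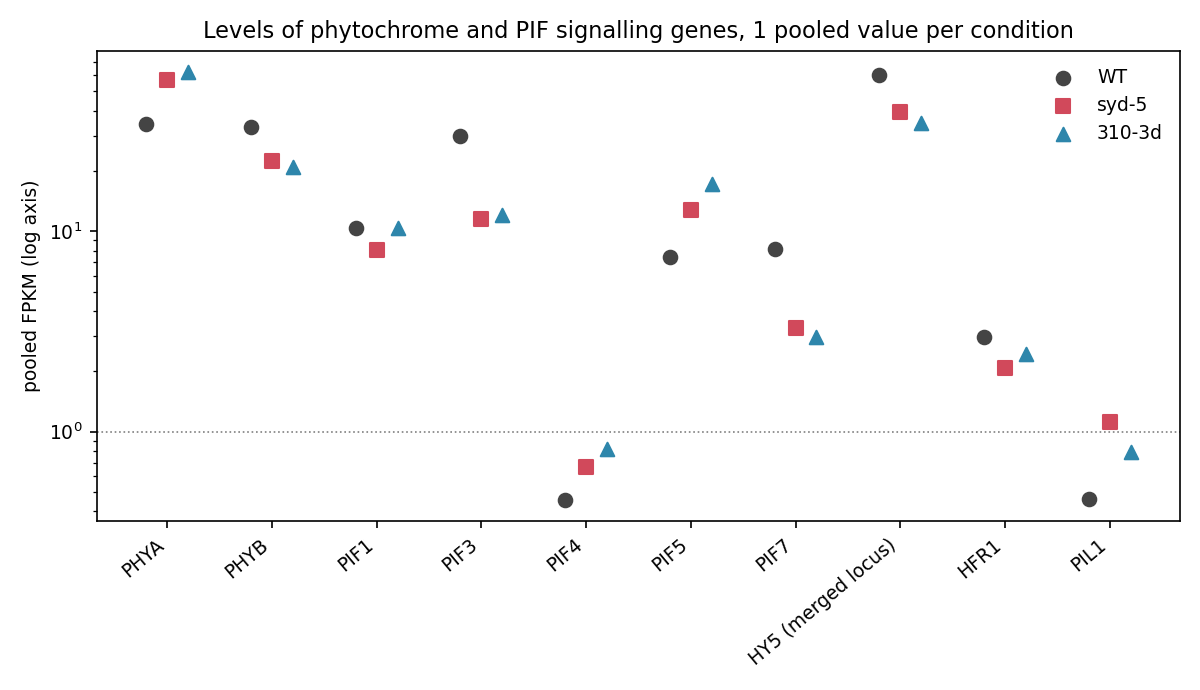
Pooled FPKM of each gene (log axis) in WT (circles), syd-5 (squares) and 310-3d (triangles), with a dotted line at 1 FPKM and no error bars because the table has 1 pooled value per condition. PHYA and PIF5 lie above WT and PHYB, PIF3, PIF7 and the merged HY5 locus below it in both other conditions, and PIF4 lies below 1 FPKM throughout.

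The photoreceptor genes moved in opposite directions. PHYA (AT1G09570, TAIR10 chromosome 1, 3095208 to 3100910) encodes the light-labile receptor of far-red light, whose transcript is known to be more abundant in darkness. In the authors' deposited table it had 34.2 FPKM in WT, against 56.7 in syd-5 and 62.3 in 310-3d. The log2 ratio was 0.73 in syd-5 (implied standard error 0.217) and 0.86 in 310-3d (0.216), with q = 0.000567 in both in that table. The value was higher in syd-5 and in 310-3d than in WT, by 1.66-fold and 1.82-fold. PHYB (AT2G18790, chromosome 2, 8139881 to 8144430) encodes the light-stable receptor that dominates red light responses in green plants. Its level was 33.3 FPKM in WT, against 22.3 in syd-5 and 20.9 in 310-3d. Its log2 ratios in the authors' deposited table were -0.58 (implied standard error 0.216) and -0.67 (0.216), again with q = 0.000567 in both. WT thus had the highest PHYB value and the lowest PHYA value of the 3 conditions. PHYA stood at 1.03 times PHYB in WT, 2.54 times in syd-5 and 2.98 times in 310-3d, a ratio of pooled FPKM with no test. The sum of the pair was 67.5 FPKM in WT, against 79.0 in syd-5 and 83.1 in 310-3d.

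The remaining phytochrome genes did not share that split. PHYC stood at 13.8 FPKM in WT, against 12.6 in syd-5 and 13.0 in 310-3d, and PHYD at 10.5, 11.2 and 10.8. PHYE, at a locus merged with AT4G18140, stood at 15.3, 12.9 and 14.5 FPKM. None of the 3 passed the authors' test, with q between 0.537 (PHYE in syd-5) and 0.906 (PHYD in 310-3d) in the deposited table. Of the chromophore enzymes, the haem oxygenase gene HY1 fell from 133 FPKM to 102 in syd-5 (log2 ratio -0.39, implied standard error 0.217, q = 0.0109) and 107 in 310-3d (-0.32, 0.216, q = 0.0491). HY2, which completes the chromophore, stood at 16.4, 14.1 and 12.7 FPKM and did not pass in either (q = 0.451 and 0.125 in the authors' deposited table).

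Among the PIF genes, 2 fell, 1 rose and 2 did not pass in each comparison. Of all tested loci, 13.6% were lower and 13.6% higher in syd-5, and 13.9% and 13.4% in 310-3d. PIF3 (AT1G09530, chromosome 1, 3075782 to 3079539), the founding member of the family, had 29.8 FPKM in WT, against 11.5 in syd-5 and 12.0 in 310-3d in the authors' deposited table. Its log2 ratio was -1.37 in syd-5 (implied standard error 0.242) and -1.31 in 310-3d (0.239), with q = 0.000567 in both. Only 2.73% of tested loci with at least 1 FPKM in a condition had a lower ratio in syd-5 and 3.02% in 310-3d. PIF7 (AT5G61270, chromosome 5, 24636293 to 24640746), a factor of the shade response, had 8.19, 3.29 and 2.97 FPKM. Its log2 ratios in the authors' deposited table were -1.32 (0.434) and -1.46 (0.420), with q = 0.000567 in both. Both genes stood at about the same share of WT, PIF3 at 38.6% in syd-5 and 40.3% in 310-3d and PIF7 at 40.1% and 36.2%. The coordinates given for PIF7 also span AT5G61260, listed as a separate locus.

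PIF5 (AT3G59060, chromosome 3, 21827978 to 21830830), which promotes elongation and leaf senescence, rose. It had 7.45 FPKM in WT, against 12.8 in syd-5 and 17.3 in 310-3d in the authors' deposited table. Its log2 ratio was 0.78 in syd-5 (implied standard error 0.289) and 1.22 in 310-3d (0.285), with q = 0.000567 in both. The table lists a second locus of the same name and coordinates, at 3.10, 4.42 and 6.53 FPKM, with log2 ratios of 0.51 (1.60) and 1.07 (1.51). That locus did not pass the authors' test (q = 0.789 and 0.492), and without the strand of the reads the loci cannot be told apart. WT had the lowest value and 310-3d the highest at both.

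PIF1 (AT2G20180, chromosome 2, 8701013 to 8706900), a repressor of seed germination and chlorophyll synthesis, did not pass. Its level was 10.4 FPKM in WT, against 8.02 in syd-5 and 10.4 in 310-3d. The log2 ratio was -0.37 in syd-5 (95% interval -0.91 to 0.17, from the implied standard error of 0.275) and 0.00 in 310-3d (-0.52 to 0.53), with q = 0.0772 and 0.993 in the authors' deposited table. With quantile normalization of the 3 conditions the value in 310-3d changed sign, from 0.00282 to -0.00193 on the scale of log2(FPKM + 1). PIF4 (AT2G43010, chromosome 2, 17886337 to 17889050), the factor of warm temperature growth, had 0.458 FPKM in WT, against 0.666 in syd-5 and 0.819 in 310-3d. Its log2 ratios of 0.54 and 0.84 carried implied standard errors of 0.766 and 0.730 (q = 0.375 and 0.115 in the authors' deposited table). Together with those of PIL1 these errors were the widest of the 10 genes, the second PIF5 locus aside.

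The makeup of the PIF transcripts differed between conditions. The 5 PIF genes summed to 56.3 FPKM in WT, against 36.3 in syd-5 and 43.5 in 310-3d. PIF3 made up 52.9% of that sum in WT, 31.7% in syd-5 and 27.6% in 310-3d, and PIF5 13.2%, 35.3% and 39.8%. PIF7 made up 14.6%, 9.07% and 6.82%, PIF1 18.5%, 22.1% and 23.9%, and PIF4 0.814%, 1.84% and 1.88%. By pooled FPKM, without a test, PIF3 stood highest of the 5 in WT and PIF5 in syd-5 and 310-3d. In syd-5 PIF5 at 12.8 FPKM and PIF3 at 11.5 were close. The place of PIF5 also rests on using the higher of its loci. The second PIF5 locus, at 4.42 FPKM in syd-5 and 6.53 in 310-3d, lay below PIF3 and PIF1 in both. FPKM is scaled to transcript length, so levels may be set beside each other, but no spread between replicates is known for them.

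**Figure D2:**
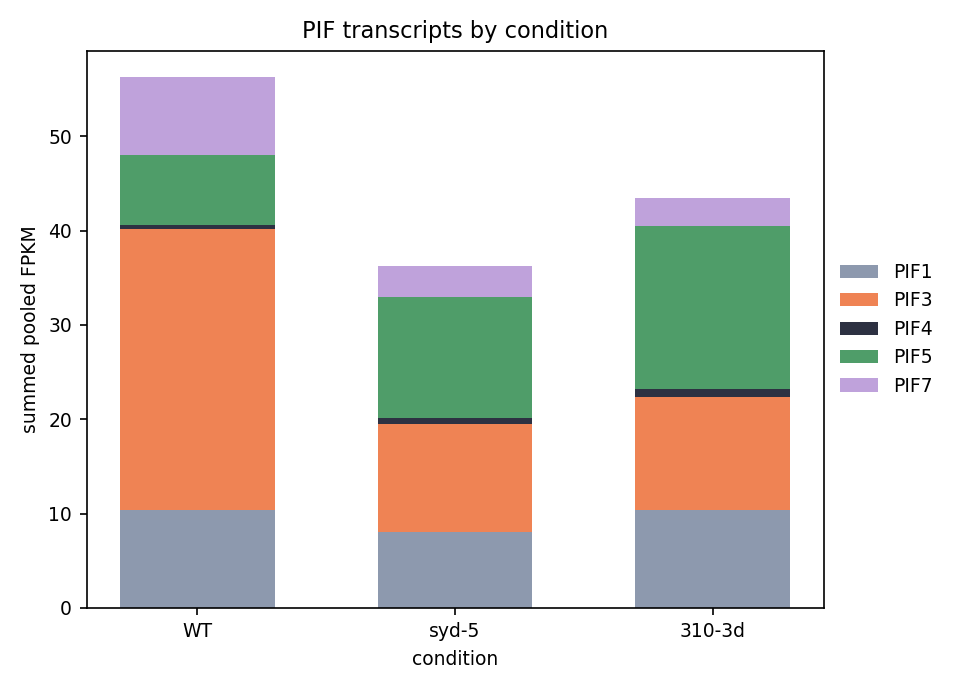
Stacked bars of pooled FPKM of PIF1, PIF3, PIF4, PIF5 and PIF7 in WT, syd-5 and 310-3d, from 0, without error bars. The PIF3 segment is 52.9% of the bar in WT and 31.7% and 27.6% in syd-5 and 310-3d, and the PIF5 segment grows from 13.2% to 35.3% and 39.8%. PIF5 is shown by the higher of its listed loci.

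HY5 (AT5G11260) shares a merged locus with the pseudogene AT5G11242 and with AT5G11250 (chromosome 5, 3587252 to 3595131), whose reads cannot be split. In the authors' deposited table that locus had 60.2 FPKM in WT, against 39.5 in syd-5 and 34.5 in 310-3d. Its log2 ratio was -0.61 in syd-5 (implied standard error 0.290, q = 0.00275) and -0.80 in 310-3d (0.299, q = 0.000567). WT had the highest value, and the share of HY5 itself in the fall is not known. HFR1 (AT1G02340, chromosome 1, 465718 to 467844) encodes an atypical bHLH protein that binds PIFs and blocks their contact with DNA. Its level was 2.98 FPKM in WT, against 2.08 in syd-5 and 2.43 in 310-3d. The log2 ratios were -0.51 (95% interval -1.45 to 0.42) and -0.29 (-1.20 to 0.62), and neither passed (q = 0.190 and 0.504 in the authors' deposited table).

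PIL1 (AT2G46970, chromosome 2, 19295490 to 19297826), a bHLH gene known for fast induction in shade, had a low level throughout. It was 0.462 FPKM in WT, against 1.11 in syd-5 and 0.793 in 310-3d in the authors' deposited table. It rose in syd-5 by a log2 ratio of 1.27, with an implied standard error of 0.729 (q = 0.0306, above the stricter threshold of 0.01). In 310-3d its log2 ratio of 0.78 (0.768) did not pass (q = 0.237). The difference between these conditions was not tested. Between 310-3d and syd-5 themselves, the log2 ratio of FPKM over the 10 genes ran from -0.49 at PIL1 to 0.44 at PIF5, with PIF1 at 0.38, PHYA at 0.14 and PIF3 at 0.06, and the table holds no test of that pair.

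**Figure D3:**
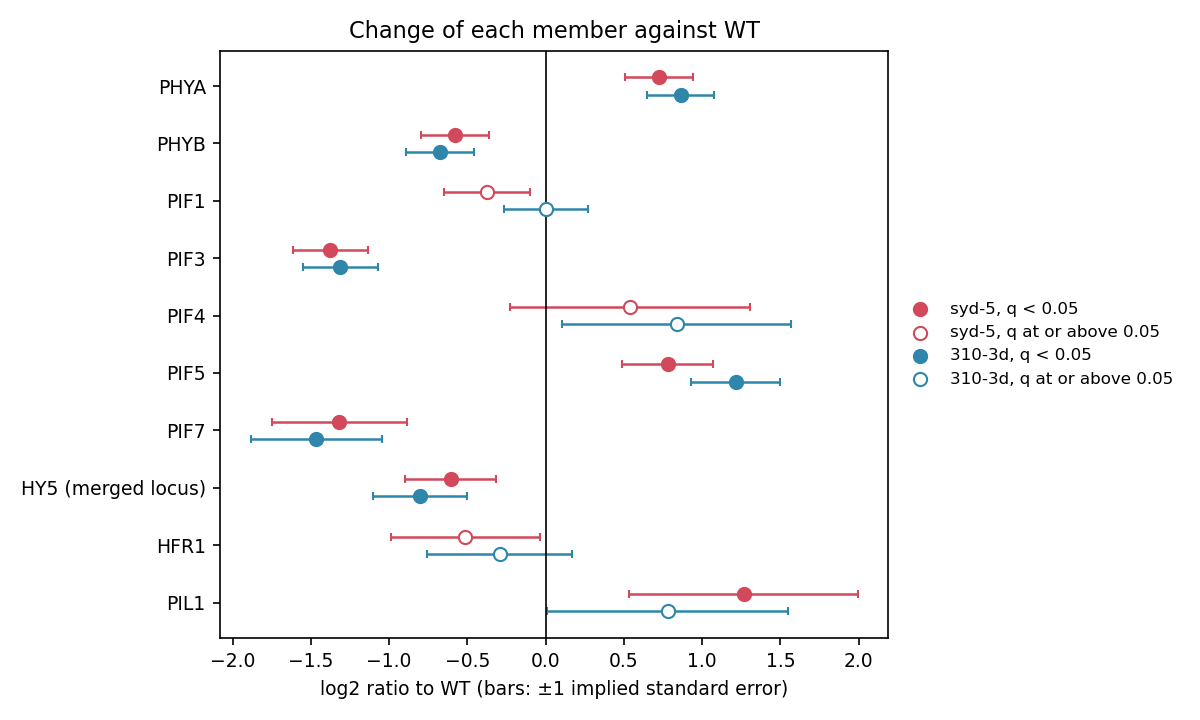
Log2 ratio to WT of each gene in syd-5 (red) and 310-3d (blue), with bars of 1 implied standard error. Filled points passed the authors' q < 0.05. PHYA and PIF5 lie to the right and PHYB, PIF3, PIF7 and the HY5 locus to the left in both, and the widest bars belong to PIF4 and PIL1.

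The order of the levels changed with these shifts. In WT the order by pooled FPKM was the merged HY5 locus, PHYA, PHYB, PIF3, PIF1, PIF7, PIF5, HFR1, PIL1 and PIF4. PHYA stood first in syd-5 and in 310-3d, followed by the HY5 locus, PHYB, PIF5, PIF3, PIF1, PIF7 and HFR1. The place of HY5 itself is not known, and that of PIF5 is for the higher of its loci. Near neighbours such as PHYA and PHYB in WT (34.2 and 33.3 FPKM) or PIL1 and PIF4 (0.462 and 0.458) cannot be ranked, since no error of a level is known. The same holds for PIF5 and PIF3 in syd-5 (12.8 and 11.5 FPKM).

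PIF3 and PHYA lie near each other on chromosome 1, with 15668 bases and 3 loci between them. Of these loci, GLP5, a germin-like protein gene next to PHYA, had 196 FPKM in WT, against 280.4 in syd-5 and 264 in 310-3d in the authors' deposited table and rose in both (log2 ratios 0.52 and 0.43, q = 0.000567 and 0.00424). AT1G09540 stood at 1.65, 2.09 and 1.43 FPKM without passing (q = 0.451 and 0.708), and AT1G09550 is listed at 0. Over the 20 nearest loci with at least 1 FPKM on either side of the 10 genes, 3 passed in syd-5 and 6 in 310-3d, beside 27.9% and 28.1% of all tested loci with that level. Of the 2 that flanked a gene itself called in syd-5, 1 went the same way as that gene, and in 310-3d 2 of 3 did. The XTH21 gene beside PHYB went the other way, from 2.65 FPKM to 13.1 in syd-5 and 9.14 in 310-3d.

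A list of 59 further light signalling genes was then examined, of which 57 reached 1 FPKM in some condition. By the authors' q in the deposited table, 31 of the 57 passed in syd-5. These were 8 rises and 23 falls, against 27.9% of tested loci with at least 1 FPKM (13.8% higher and 14.1% lower). In 310-3d 32 passed, with 10 rises and 22 falls, against 28.1% (13.7% higher and 14.4% lower). At q < 0.01 in place of 0.05, 5 rises and 20 falls remained in 310-3d and 6 and 20 in syd-5. The median log2 fold change of FPKM + 1 was -0.23 in syd-5 and -0.28 in 310-3d, beside 0.01 and -0.01 for tested loci with at least 1 FPKM. FHL, LAF1, YUC5, YUC9 and CKX5 reached 1 FPKM only outside WT, so that a higher value there was built into the filter. Without these 5 there were 6 rises and 23 falls in syd-5 and 7 and 22 in 310-3d. The list was drawn up with results of these data known, and no test was run on it as a set.

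The largest fall among the PIF relatives was that of PIF8, known as a repressor of PHYA responses. PIF8 had, in the authors' deposited table, 42.5 FPKM in WT, against 10.7 in syd-5 and 7.51 in 310-3d, with log2 ratios of -1.99 (implied standard error 0.252) and -2.50 (0.268) and q = 0.000567 in both. It was the most abundant PIF gene of WT and made up 40.7% of the summed FPKM of all 7, but 19.0% in syd-5 and 12.5% in 310-3d. PIF6 stood at 5.81, 9.18 and 9.08 FPKM and rose in 310-3d (log2 ratio 0.64, implied standard error 0.386, q = 0.0293). It missed the threshold in syd-5 at nearly the same ratio (0.66, 0.438, q = 0.0504). With PIF6 and PIF8 the family summed to 104.6 FPKM in WT, against 56.1 in syd-5 and 60.1 in 310-3d.

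Of 7 genes of the COP1/SPA ubiquitin ligase and the related DET1 and COP10, 4 fell and 0 rose in each comparison, beside 14.1% of tested loci that were lower in syd-5 and 14.4% in 310-3d. The SPA proteins are partners of COP1 that help it mark HY5 and HFR1 for degradation. SPA3 fell in the authors' deposited table from 31.7 FPKM to 9.62 in syd-5 and 9.65 in 310-3d (log2 ratios -1.72 in each, implied standard errors 0.280 and 0.268). SPA4 fell from 15.2 FPKM to 6.50 and 6.08 (-1.22 and -1.32) and SPA1 from 37.7 to 18.7 and 18.8 (49.7% and 49.9% of WT), and all 3 had q = 0.000567 in both comparisons. COP1, named after its values were seen, fell from 23.5 FPKM to 16.5 (-0.51, q = 0.00106) and 15.8 (-0.57, q = 0.000567). SPA2 at 14.6, 12.1 and 11.9 FPKM, DET1 and COP10 did not pass.

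Of the blue and UV-B receptor genes 3 of 5 fell in each comparison, beside the same 14.1% and 14.4% of loci. The phototropin genes PHOT1 and PHOT2 and the UV-B receptor gene UVR8 were those, with log2 ratios in the authors' deposited table of -0.73 (implied standard error 0.217), -0.58 (0.288) and -0.35 (0.216) in syd-5 and -0.65, -0.59 and -0.48 in 310-3d. PHOT1 stood at 70.0 FPKM in WT, against 42.3 in syd-5 and 44.7 in 310-3d. The cryptochrome genes did not pass, CRY1 at 60.3, 53.0 and 58.1 FPKM and CRY2 at 100.3, 80.4 and 82.1 (q = 0.0518 and 0.0899). Of the 4 genes for nuclear import of PHYA, FHL rose in 310-3d from 0.950 to 3.60 FPKM (log2 ratio 1.92, implied standard error 0.838, q = 0.00275), beside 13.7% of loci that were higher. FHL stood at 2.09 in syd-5 (q = 0.0871). It reached 1 FPKM only outside WT, so that a higher value there was built into the filter. Its partner FHY1 and the factors FHY3 and FAR1 that activate both reached 1 FPKM in WT and did not pass.

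Genes of factors that work with HY5 or restrain its action went both ways, with 3 rises and 4 falls among 8 in syd-5 and 1 and 4 in 310-3d. Of tested loci with at least 1 FPKM, 13.8% were higher and 14.1% lower in syd-5, and 13.7% and 14.4% in 310-3d. Among the 7 genes that reached 1 FPKM in WT, which leaves out LAF1, there were 2 rises and 4 falls in syd-5 and 1 and 4 in 310-3d. BBX20, a B-box protein gene that aids HY5, rose in the authors' deposited table from 6.35 FPKM to 21.3 in syd-5 and 20.5 in 310-3d (log2 ratios 1.74 and 1.69, implied standard error 0.339 in both). BBX25 and BBX32, whose products restrain HY5 action, fell from 10.3 to 1.61 and 1.55 FPKM (-2.67 and -2.72, with implied standard errors of 0.978 and 0.951) and from 3.43 to 0.665 and 0.684 (-2.37 and -2.32). The next falls, named after their values were seen, were BBX24, at 43.9, 17.4 and 24.2 FPKM, and the locus of the HY5 homologue HYH merged with AT3G17611, at 72.4, 32.5 and 29.7. LAF1, from 0.523 to 2.17 FPKM, and BBX22, from 30.9 to 39.4, rose in syd-5 (q = 0.00821 and 0.0399 in the authors' deposited table) and did not pass in 310-3d at 1.21 and 39.1 FPKM. BBX21 stood at 90.1, 85.5 and 80.7 FPKM and did not pass.

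Of 4 genes known as HY5 targets, chosen with results of these data known, 3 fell in syd-5 and 4 in 310-3d and 0 rose, beside 14.1% and 14.4% of tested loci that were lower. ELIP1 and ELIP2 in the authors' deposited table, which encode early light-induced proteins of the chloroplast, fell from 30.2 FPKM to 8.42 in syd-5 and 7.15 in 310-3d and from 20.4 to 5.58 and 4.31. Their log2 ratios were -1.84 (implied standard error 0.319) and -1.87 (0.377) in syd-5 and -2.08 and -2.24 in 310-3d, and as close paralogues they may share reads. The flavonoid gene F3H fell from 60.5 to 32.3 and 25.8 FPKM (-0.91 and -1.23). The chalcone synthase gene CHS, the remaining gene of the list, fell in 310-3d from 428 to 224 FPKM (-0.93, q = 0.000567) and stood at 333 in syd-5 (-0.36, q = 0.0701).

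HLH proteins that bind other bHLH factors were split. KDR, which can bind HFR1, fell in the authors' deposited table from 32.7 FPKM to 5.11 in syd-5 and 7.84 in 310-3d (log2 ratios -2.68 and -2.06, implied standard errors 0.403 and 0.356). HEC1, a bHLH gene known from carpel development, fell from 7.94 to 1.16 and 1.95 FPKM (-2.78 and -2.02). PAR1, whose product blocks PIF4, rose from 10.7 to 16.2 and 21.3 FPKM (0.60 and 0.99, q = 0.0176 and 0.000567). Of the 5 genes of this list that reached 1 FPKM, 2 fell and 1 rose in each comparison. Of all tested loci at that level, 14.1% were lower and 13.8% higher in syd-5, and 14.4% and 13.7% in 310-3d. PAR2 stood at 9.67, 8.72 and 12.8 FPKM and PRE5 at 1.23, 0.582 and 0.650, without passing.

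Genes known to respond to shade or PIFs did not move as a block. Among 17, 4 rose and 5 fell in syd-5 and 6 rose and 3 fell in 310-3d. Of tested loci with at least 1 FPKM, 13.8% were higher and 14.1% lower in syd-5, and 13.7% and 14.4% in 310-3d. Among the 14 genes that reached 1 FPKM in WT, 3 rose and 5 fell in syd-5 and 4 rose and 3 fell in 310-3d. In the authors' deposited table the cell wall enzyme gene XTR7 rose from 20.3 FPKM to 64.5 in syd-5 and 85.4 in 310-3d (log2 ratios 1.67 and 2.07, implied standard errors 0.262 and 0.257). PKS2, a phytochrome kinase substrate gene, rose from 15.3 to 23.7 and 33.7 FPKM (0.64 and 1.14). The auxin synthesis gene YUC2 fell from 2.95 to 0.352 and 0.523 FPKM (-3.07 and -2.50, implied standard errors 0.674 and 0.581), all 3 genes with q = 0.000567 in both. Outside the rule for named genes, IAA29 fell from 3.47 to 0.347 and 0.318 FPKM (-3.32 and -3.45, q = 0.00194 and 0.00106), and CKX5 rose from 0.598 to 3.31 and 2.86 (2.47 and 2.26, q = 0.00851 and 0.0160). CKX5 reached 1 FPKM only outside WT, so that its higher value was built into the filter. The shade marker ATHB2 stood at 8.60, 9.24 and 8.90 FPKM, with q = 0.772 and 0.902.

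**Figure D4:**
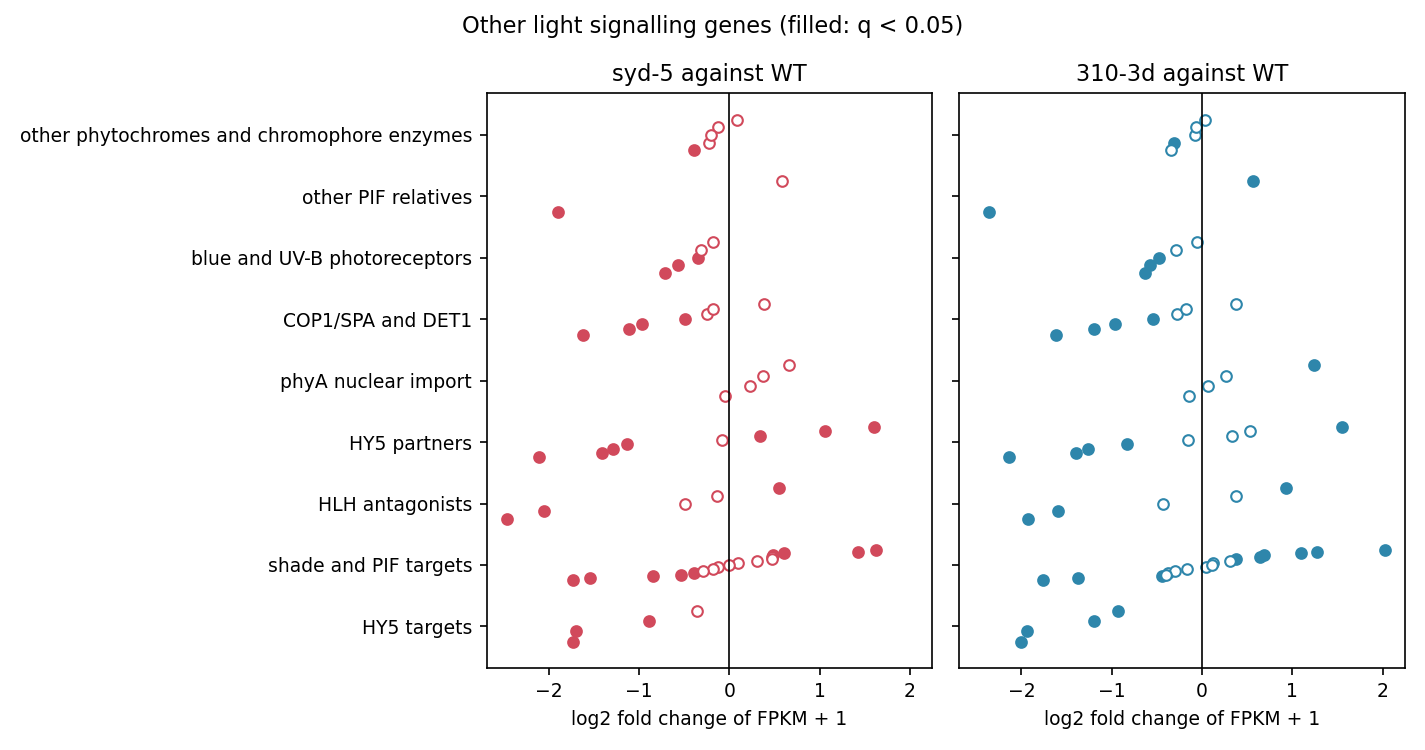
Log2 fold change of FPKM + 1 against WT for the 57 further light signalling genes in 9 lists, in syd-5 (left) and 310-3d (right), with 1 point per gene spread vertically for legibility and filled where the authors' q was below 0.05. The filled points of the COP1/SPA, blue and UV-B receptor and HY5 target lists all lie left of 0, while those of the shade and PIF target list lie on both sides.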

How the data were processed

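Seedling RNA was sequenced in paired reads, per the labels' protocols. Cuffdiff 2.1.1, Cufflinks 2.1.1, TopHat2 2.1.1 and the build TAIR10 are listed in the submitters' processing notes. Their settings and the strandedness were not given in the sources used here. The authors deposited FPKM as 1 value pooled over replicates per locus and condition, with a test statistic (a score), a p-value and a q-value per comparison with WT, per the file headers. Depth is unknown, so no counting interval was computed. Since no value per replicate was at hand, the authors' q below 0.05 set which loci were called, with no other test. P-values measure the spread that the authors' model took from 3 biological replicates.

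Log2 ratios were computed from FPKM in Python 3.11.15 with pandas 2.3.3. The implied standard error is the log2 ratio over the statistic. Read as a normal deviate, the authors' p exceeded the statistic by a median factor of 1.74, so the error behind p is smaller and a called gene can have an interval that holds 0. Locus starts were raised by 1, which matched the RefSeq (TAIR10.1) start at 36.4% of loci with 1 gene, against 0.380% as written. Gene names came from that table by locus tag (10 of 10 and 59 of 59 identifiers matched). Where a gene has several loci, the one with the highest mean FPKM was used. A filter of 1 FPKM in at least 1 condition was set for the further genes and not for the 10. Members and lists were chosen with earlier results of these data known. Named from each list were up to 3 called genes with the smallest q in either comparison, ties going to the larger change. The adjustment and scaling steps were tested on simulated data.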

Additional observations from a re-analysis of the deposited data

How the results depend on the processing

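Alternatives were q < 0.01, an adjustment within each comparison, no filter or one of 5 FPKM, a pseudocount of 0.1, quantile normalization, loci with 1 gene name and, the last chosen after the data were seen together with the single-name counts, the second PIF5 locus. Total counts of calls stayed within 1.5 times their value: 6 to 7 of the 10 genes in syd-5 and 5 to 6 in 310-3d, 25 to 33 further genes in syd-5 and 25 to 34 in 310-3d. By direction, rises moved further in 310-3d: from 10 to 5 further genes at q < 0.01, while falls went from 22 to 20, and from 2 to 1 of the 10 genes at the second PIF5 locus. PIL1 loses its call in syd-5 at q < 0.01, and PIF5 in both comparisons at its second locus. The median of the 10 genes in 310-3d turned from -0.11 to 0.00282 without the merged HY5 locus, and PIF1 in 310-3d from 0.00282 to -0.00193 with quantile normalization. The other 70 alternative values kept their direction or, for total counts in both directions together, that range. No replicate could be left out. No paired analysis was possible because the table holds 1 pooled value per condition. PIF4 and PIL1 had the widest implied errors of the 10 genes, the second PIF5 locus aside.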
